A study of Mus musculus with 6 samples.

Results

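miR-296 and miR-298 are a pair of mouse microRNAs (miRNAs) whose hairpins lie next to each other upstream of Gnas, in an imprinted region of chromosome 2. They were followed here as RNA bound to Argonaute (Ago). Ago is the core of RISC, the RNA-induced silencing complex, in which a small RNA guides it to target transcripts. The members were all reads that carried the label of 1 of the 4 mature arms, mmu-miR-296-5p, mmu-miR-296-3p, mmu-miR-298-5p and mmu-miR-298-3p (the mouse prefix is left out below), out of 1091 miRNA labels. These reads took 152 of the 143934 read sequences. The pair was selected on its own levels at the 2 ages, so the difference between the ages is given below as a description and without a test.

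The samples were cortex combined with hippocampus of BL6 mice, 3 mice 2 months old (2M) and 3 mice 18 months old (18M). No group carried a transgene or a drug, and per the methods of the study the mice were purchased C57BL/6J males. Ago1-4 were pulled down with a peptide of GW182, a protein that binds Ago, and the RNA in the pulldown (R-sRNA) was sequenced (Ago-RP-Seq). Libraries held 19272046 to 25080484 reads, and values are in RPM, reads scaled to the same total in each library, and so give a share of 1 library and not an amount per cell. Since the tissue was lysed whole, fewer cells of a type and less RNA per cell cannot be told apart.

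An imprinted gene is expressed mainly from the copy inherited from 1 parent. The Gnas region encodes the stimulatory G protein alpha subunit along with several transcripts of maternal or paternal origin, and miR-296 and miR-298 are known as miRNAs expressed from the paternal copy, in the same direction as Nespas, the antisense transcript that takes part in imprinting of the region. A miRNA is cut from a hairpin whose 5p and 3p arms can each enter RISC, and the arm then pairs with targets mainly through its seed. miR-296-5p is known for targeting Hgs, a regulator of growth factor receptor turnover, in blood vessel growth, and miR-298 for targeting Bace1, the beta-secretase that cuts amyloid precursor protein.

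The mature sequences are shown because the seed decides both targeting and the toxicity score used in the study. They are the RefSeq sequences on GRCm38.p6, 5′ to 3′, with the seed (bases 2 to 8) in capitals.
miR-296-5p: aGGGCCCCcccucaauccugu
miR-296-3p: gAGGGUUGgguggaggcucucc
miR-298-5p: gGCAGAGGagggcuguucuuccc
miR-298-3p: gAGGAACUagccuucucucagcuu

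No seed was shared among the 4 arms. The arms were 21, 22, 23 and 24 nt long in the order shown, and G and C made up 66.7%, 68.2%, 65.2% and 50% of their bases. miR-296-5p stands out in this set for a run of C that starts inside its seed.

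Both hairpins are on the minus strand of chromosome 2. Mir296 lies at chr2:174267047-174267125 and Mir298 at chr2:174267504-174267585, with 378 bp between them. In the GENCODE annotation of this build no other gene overlapped either hairpin. The nearest end of Nespas lay 13652 bp from Mir298 on the same strand, and the start of Gnas lay 16735 bp away on the opposite strand. The whole hairpins are printed with their mature arms in capitals, to show where each arm ends.
Mir296 hairpin: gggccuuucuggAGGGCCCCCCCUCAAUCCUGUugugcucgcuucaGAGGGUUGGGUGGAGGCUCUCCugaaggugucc
Mir298 hairpin: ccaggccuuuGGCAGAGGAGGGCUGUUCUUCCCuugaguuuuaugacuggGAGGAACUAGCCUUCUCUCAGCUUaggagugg

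The only other RefSeq miRNA gene within 1 Mb, that of miR-6340, had no label among the deposited reads, from which the authors had removed rare sequences. None of the member reads carried a second miRNA label, so no value below is split with a paralog.

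miR-296-5p was the most abundant of the 4 arms. It was read at 357, 358 and 545 RPM in the 2M mice and at 92.9, 77.4 and 121 RPM in the 18M mice. The ages did not overlap, and 2M replicate 3 was the highest of the young mice. The mean was 420 ± 108 RPM (SD, n = 3) in the young mice and 97.0 ± 21.9 RPM (SD, n = 3) at 18M, a 4.33-fold difference. On the log2(RPM + 1) scale the difference of 18M minus 2M was -2.10 (SE 0.23). These values rested on 7492 to 11438 reads per young library and 1792 to 2639 per old library. Among the 1091 labels ranked by mean RPM, miR-296-5p stood at place 165 in the young mice and at place 269 at 18M.

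miR-298-5p, the main arm of the neighbouring hairpin, had the tighter values. It was read at 161, 181 and 168 RPM in the 2M mice and at 78.7, 57.96 and 62.5 RPM in the 18M mice. The means were 170 ± 10.2 and 66.4 ± 10.9 RPM (SD, n = 3 each), 2.56-fold apart, and the log2 difference was -1.35 (SE 0.14). Its place in the ranking was 238 in the young mice and 299 at 18M.

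miR-296-3p, the opposite arm of the miR-296 hairpin, was read at 22.0, 28.5 and 24.5 RPM in the 2M mice and at 10.3, 7.98 and 9.55 RPM in the 18M mice. The means were 25.0 ± 3.28 and 9.28 ± 1.196 RPM (SD, n = 3 each), 2.69-fold apart, with a log2 difference of -1.34 (SE 0.16). miR-298-3p was close to the limit of what these libraries could count, with 38, 41 and 41 reads in the 2M mice and 13, 13 and 21 reads in the 18M mice. That is 1.80 ± 0.159 RPM against 0.730 ± 0.207 RPM (SD, n = 3 each), a 2.47-fold difference. A floor of 3 reads corresponds to 0.120 to 0.156 RPM in these libraries, and such counts cover counting error only.

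**Figure D1:**
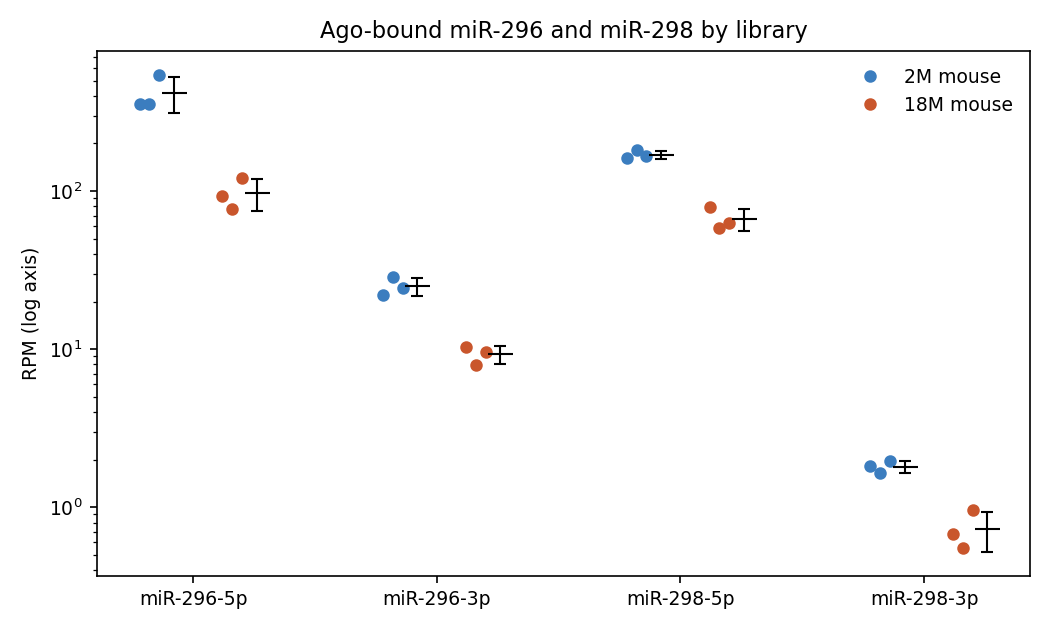
RPM (log axis) of each arm in each library, 2M mice in blue and 18M mice in orange; the black mark beside each set of 3 points is the mean with its SD. For all 4 arms every 18M mouse sits below every 2M mouse, from 77.4 to 121 against 357 to 545 RPM for miR-296-5p and from 0.555 to 0.959 against 1.64 to 1.95 RPM for miR-298-3p.

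All 4 arms thus had every old mouse below every young mouse. Such a separation was found for 128 of the 698 labels with a mean of at least 1 RPM, or 18.3%. For 3 of the 4 members the mean passed the minimum of 10 RPM set for the fit, and miR-298-3p did not. Over all miRNAs fitted, limma called 14, or 3.0%, lower at 18M at an adjusted p under 0.05. Calls in either direction were 3.22% of the miRNAs tested. Because the pair was chosen on this contrast, no call is given for its members and nothing is read from these counts. The members just inside the minimum and just outside it were miR-296-3p, with a mean of 17.1 RPM over the 6 libraries, and miR-298-3p, with 1.26 RPM. At 18M the mean of miR-296-3p was 9.28 RPM, so it passed the minimum only through the young mice.

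Among the miRNAs fitted, no other miRNA had a lower log2 difference than miR-296-5p. The pair was chosen on this contrast, so the place of its members in this order is a description only. For miR-296-3p and miR-298-5p, 4 others did, namely miR-10a-5p, miR-10b-5p, miR-351-5p and miR-375-3p. None of these 4 passed the test, with limma adjusted p of 0.318, 0.362, 0.0521 and 0.515. With no call given for the members, this does not set them apart from these 4. miR-351-5p was close to the threshold, at 34.9, 35.8 and 41.0 RPM in the young mice and 14.7, 15.9 and 6.44 RPM in the old mice, without overlap. The young mice differed widely for the other 3, such as miR-375-3p, a miRNA of endocrine cells, which reached 1124 RPM in the first young mouse, 2M replicate 1, against 31.7 and 41.6 RPM in the other young mice. The 4 arms together took 0.0542% to 0.0739% of the reads of a young library and 0.0144% to 0.0194% of an old one.

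**Figure D2:**
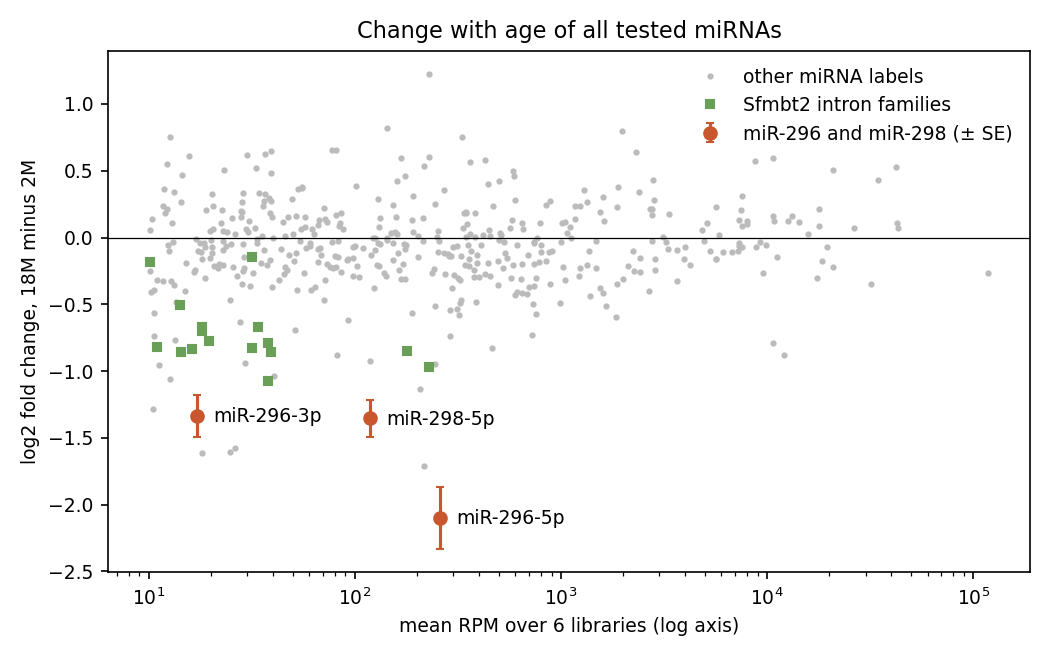
Log2 fold change (18M minus 2M, on log2(RPM + 1)) of the miRNAs tested against their mean RPM over the 6 libraries (log axis); orange points are the 3 members tested, with the SE, and green squares the miRNA families of the Sfmbt2 intron, matched by name. miR-296-5p lies lowest at -2.10, while miR-296-3p and miR-298-5p lie near -1.34 and -1.35.

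Within a library the 5p arm of each hairpin was well above its 3p arm. The levels of the arms entered the choice of the pair, so this comparison too is a description, with no test. The ratio of miR-296-5p to miR-296-3p was 16.3, 12.6 and 22.3 in the young mice and 9.005, 9.71 and 12.6 in the old mice. On the log2(RPM + 1) scale the mean difference over the 6 libraries was 3.62 (SD 0.516), with miR-296-5p higher in 6 of 6 libraries.

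The miR-298 hairpin was more lopsided. miR-298-5p exceeded miR-298-3p in 6 of 6 libraries, by 65.2 to 117 times as a ratio of RPM. On the log2(RPM + 1) scale the mean difference was 5.61 (SD 0.411), less than these ratios give, because the pseudocount of 1 RPM is large beside the level of miR-298-3p. A pseudocount of 0.1 RPM gave 6.41 and one of 5 RPM gave 4.16. Between the hairpins, miR-296-5p was above miR-298-5p in 6 of 6 libraries by a mean difference of 0.90 (SD 0.524) on the log2(RPM + 1) scale. The reads of miRNAs of near-equal length were set side by side here, and no correction for ligation or sequencing of different ends was possible.

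As a share of the reads of its hairpin, the 5p arm of miR-296 took 94.2% ± 1.53 (SD, n = 3) in the young mice and 91.1% ± 1.38 (SD, n = 3) at 18M. The highest old mouse, at 92.7%, and the lowest young mouse, at 92.6%, overlapped. For miR-298 the 5p arm took 98.9% ± 0.138 in the young mice and 98.9% ± 0.357 at 18M (SD, n = 3 each). The widest Wilson 95% interval reached 1.32 percentage points from a share for miR-296 and 0.654 for miR-298. The ratio of miR-296-5p to miR-298-5p was 2.21, 1.97 and 3.25 in the young mice and 1.18, 1.34 and 1.93 in the old mice, without overlap. This ratio is built from the values that chose the pair.

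The reads behind a label need not be the annotated sequence, since ends are trimmed, extended or tailed (isomiRs). The arms differed from each other in this respect, and shares set side by side for the ages are descriptions as well. How often such shares separate the ages over all miRNAs was not worked out, so no separation below is read as particular to these arms. The annotated miR-296-5p sequence made up 79.7% of all its reads, and the 4 next most abundant sequences are shown because they differ in their 3′ end, with bases not found in the hairpin in capitals.
miR-296-5p mature: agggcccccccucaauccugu
miR-296-5p, 1 nt shorter: agggcccccccucaauccug
miR-296-5p, 1 nt longer: agggcccccccucaauccuguu
miR-296-5p, 2 nt shorter: agggcccccccucaauccu
miR-296-5p, untemplated C: agggcccccccucaauccugC

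The mature read stood at 333 ± 92.5 RPM in the young mice and 78.7 ± 20.05 RPM at 18M (SD, n = 3 each), 4.23-fold apart. The templated variants were 5.41-fold (1 nt shorter), 7.31-fold (1 nt longer) and 6.78-fold (2 nt shorter) apart between the ages. The read that ends in an untemplated C was the exception among these, with 6.37 ± 1.54 RPM in the young mice and 3.11 ± 0.495 RPM at 18M, 2.05-fold apart. Reads with a single untemplated C took 1.59% ± 0.211 of miR-296-5p in the young mice and 3.34% ± 0.714 at 18M (SD, n = 3 each). The ages did not overlap, at 1.44% to 1.83% against 2.54% to 3.91%. Other classes of miR-296-5p separated in the opposite direction. Templated reads with a longer 3′ end took 4.55% ± 0.754 in the young mice and 3.42% ± 0.661 at 18M. Reads with a single untemplated U took 0.283% ± 0.0255 and 0.0622% ± 0.0117 (SD, n = 3 each), on very few old reads.

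Reads of miR-298-5p had no dominant 3′ end. The leading read was 2 nt shorter than the annotated sequence and made up 23.0% of all reads of this arm, while the annotated sequence made up 13.2%. The 5 leading reads, all with the same start, are printed to show the spread of ends.
miR-298-5p, 2 nt shorter: ggcagaggagggcuguucuuc
miR-298-5p, 3 nt shorter: ggcagaggagggcuguucuu
miR-298-5p, 1 nt shorter: ggcagaggagggcuguucuucc
miR-298-5p mature: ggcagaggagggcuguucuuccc
miR-298-5p, 4 nt shorter: ggcagaggagggcuguucu

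They stood, in that order, at 38.3, 36.1, 30.5, 22.7 and 8.92 RPM in the young mice and at 16.1, 14.01, 12.9, 8.41 and 2.81 RPM at 18M. Reads trimmed at the 3′ end took 67.2% ± 1.77 in the young mice and 69.2% ± 1.95 at 18M (SD, n = 3 each), with overlapping ages. A single untemplated U was less common at 18M, with 5.68% ± 1.02 in the young mice and 3.24% ± 0.339 at 18M (SD, n = 3 each), at 5.0% to 6.86% against 2.99% to 3.62%.

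**Figure D3:**
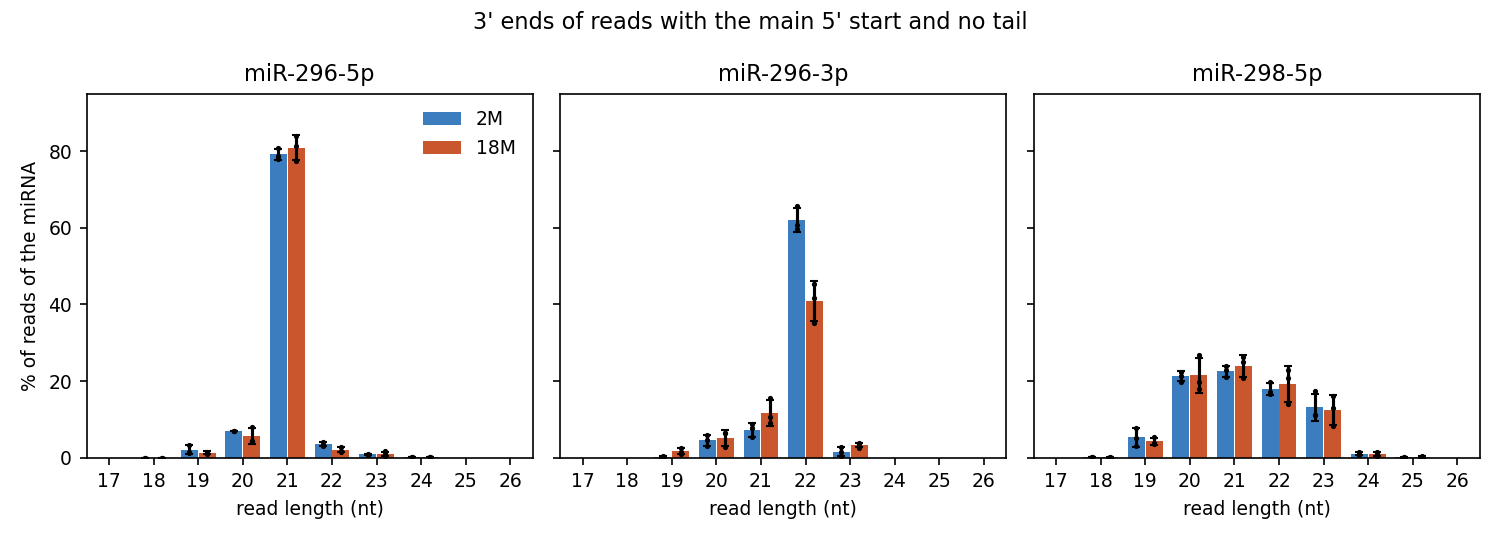
Share of the reads of an arm (%, mean of 3 libraries with the SD; small dots are the libraries) by read length (nt), for reads with the annotated 5′ start and no untemplated tail, 2M in blue and 18M in orange. miR-296-5p is concentrated at 21 nt, miR-298-5p is spread over 19 to 23 nt, and the 22 nt read of miR-296-3p takes 62.0% in the young mice and 40.8% at 18M.

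In miR-296-3p the make-up of the reads differed between the ages. Its annotated sequence took 59.7%, 65.7% and 60.7% of its reads in the young mice and 35.2%, 41.7% and 45.5% in the old mice. The means were 62.0% ± 3.22 and 40.8% ± 5.20 (SD, n = 3 each), and the widest Wilson 95% interval reached 7.0 percentage points from a share. The 5 leading reads follow, with the untemplated base in capitals.
miR-296-3p mature: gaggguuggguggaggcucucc
miR-296-3p, 1 nt shorter: gaggguuggguggaggcucuc
miR-296-3p, untemplated U: gaggguuggguggaggcucucU
miR-296-3p, start 1 nt downstream: aggguuggguggaggcucucc
miR-296-3p, 2 nt shorter: gaggguuggguggaggcucu

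The mature read stood at 15.6 ± 2.86 RPM in the young mice and 3.77 ± 0.520 RPM at 18M (SD, n = 3 each), 4.13-fold apart, close to the fold of the mature miR-296-5p read. The other leading reads were 1.61-fold (1 nt shorter), 2.07-fold (untemplated U), 1.499-fold (downstream start) and 2.30-fold (2 nt shorter) apart. Reads with any untemplated tail took 17% ± 2.38 of this arm in the young mice and 26.0% ± 1.22 at 18M, and reads with a shifted 5′ start took 7.27% ± 0.840 and 11.1% ± 1.13 (SD, n = 3 each). Neither share overlapped between the ages. Old libraries held only 187 to 209 reads of this arm, and whether its lower level bears on its composition was not tested.

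**Figure D4:**
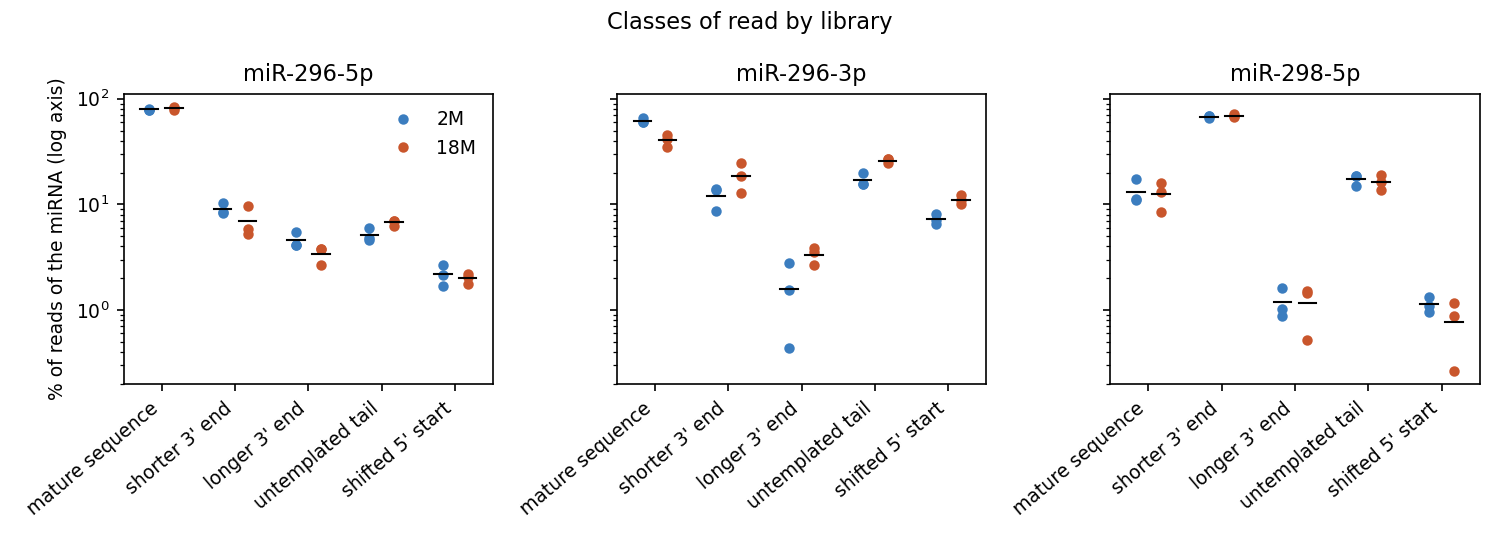
Share of the reads of an arm (%, log axis) in each class of read for each library, 2M in blue and 18M in orange, with the group mean as a black line. The mature sequence of miR-296-3p is lower at 18M (62.0% to 40.8%) and its tailed reads are higher (17% to 26.0%), while for miR-298-5p trimmed reads lead at both ages (67.2% and 69.2%).

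A shift of the 5′ start changes the seed. It was rare in the 5p arms, at 2.17% ± 0.494 and 2.00% ± 0.201 for miR-296-5p and at 1.13% ± 0.187 and 0.772% ± 0.463 for miR-298-5p (2M and 18M, SD, n = 3 each). In these 5p arms the class also held reads that did not match the hairpin near their 5′ end, some with the annotated start. The shares therefore overstate the shift. In miR-298-3p a shifted start was common at 2M. Of its reads, 15 of 38, 16 of 41 and 13 of 41 started 1 nt downstream in the young mice, against 1 of 13, 0 of 13 and 2 of 21 in the old mice. A count of 0 of 13 allows a share of up to 23.1%, and the intervals reached up to 16.0 percentage points from a share, so this difference rests on very few reads. The leading read with each start is shown.
miR-298-3p, annotated start: gaggaacuagccuucucucagcu
miR-298-3p, start 1 nt downstream: aggaacuagccuucucucagcuu

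The study scored each read by its 6mer seed (bases 2 to 7), using the percent viability of cells given an siRNA with that seed, averaged by the authors over 3 murine cell lines. A low value marks a toxic seed, and G-rich seeds are known to be among the most toxic in this assay. The viability is a property of the seed and not of these libraries. The seed of miR-296-5p, GGGCCC, scored 15.8%. Of the miRNAs with a mean of at least 10 RPM only 13 had a leading read with a lower score, and 3.84% of the 4032 seeds seen in the table scored lower. The seeds of miR-296-3p (AGGGUU), miR-298-5p (GCAGAG) and miR-298-3p (AGGAAC) scored 32.8%, 50.2% and 47.6%. No other miRNA of at least 10 RPM had one of these 4 seeds in its leading read.

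Members whose reads scored under 40% summed to 444 ± 108 RPM in the young mice and 105 ± 22.6 RPM at 18M (SD, n = 3 each), nearly all of it miR-296-5p. They took 0.331% ± 0.0839 and 0.0802% ± 0.0131 of all reads with such seeds. Those reads made up 13.4% ± 0.192 of a young library and 13.1% ± 0.713 of an old one. The pair was thus a small part of the toxic seeds in RISC at either age. For miR-298-3p the downstream start carries the seed GGAACU, which scored 30.0%, and the mean viability of its reads was 41.1% ± 0.762 in the young mice and 46.6% ± 0.888 at 18M. This difference rests on very few reads. The old libraries held 13, 13 and 21 reads of this arm, of which 1, 0 and 2 had the downstream start.

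Other RNAs in RISC can carry the same 6mer seed. miR-296-5p supplied 95.6% ± 0.355 of all reads with its seed in the young mice and 89.6% ± 2.81 at 18M (SD, n = 3 each), and the seed as a whole went from 430 ± 109 to 106 ± 23.9 RPM. The remaining reads with this seed stood at 18.5 RPM in the young mice and 11.1 RPM at 18M. Of these, 7.18 and 2.06 RPM had no miRNA label but were placed on the miR-296 hairpin itself. miR-298-5p supplied 81.8% ± 3.82 of its seed in the young mice and 57.6% ± 3.07 at 18M, and reads of that seed from other RNAs stood at 37.7 ± 10.1 RPM in the young mice and 48.0 ± 1.85 RPM at 18M. Most of these came from tRNA: 88 read sequences placed on methionine tRNAs with a CAT anticodon summed to a mean of 29.9 RPM in the young mice and 38.8 RPM at 18M. The total of the seed was 206 ± 17.1 RPM in the young mice and 114 ± 13.0 RPM at 18M, a smaller step than that of the miRNA itself.

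The profile over the 6 libraries was compared with that of every other miRNA of at least 10 RPM, by the root mean square distance between log2(RPM + 1) values centred on their mean. The profile of miR-298-5p was nearest to that of the other member miR-296-3p, at 0.0861. Outside the pair, miR-322-5p (0.168), miR-467d-5p (0.192) and miR-467a-5p (0.241) were nearest, against a median of 0.681 over the others. For miR-296-5p the nearest outside the pair were miR-322-5p (0.552), miR-467d-5p (0.553) and miR-412-5p (0.588), against a median of 1.07. All these profiles share the same 6 libraries and 2 ages, and members and neighbours alike were lower at 18M. The neighbours were picked for likeness to members chosen on this contrast. Their p-values for age, here and below, are therefore not independent of that choice. miR-322-5p, from a growth-linked cluster on the X chromosome, was at 265, 306 and 279 RPM in the young mice and 156, 96.1 and 141 RPM at 18M, and fell with a log2 difference of -1.14 (limma adjusted p = 0.0311).

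miRNAs of other imprinted loci were set beside the pair. Of the chromosome 12 Dlk1-Dio3 region, expressed from the maternal copy, 97 of the 105 names listed had reads and 76 were tested. In this list 1 fell and 0 rose with limma, as with edgeR, while DESeq2 called 4 lower and 1 higher. By limma 13 lower and 1 higher differences had an unadjusted p under 0.05, or 18.4% of the list, against 79 differences, or 16.95%, over all miRNAs fitted. The median log2 difference was -0.17, against -0.07 over all miRNAs fitted. The one that fell was miR-412-5p, at 53.7, 49.0 and 62.4 RPM in the young mice and 20.9, 29.1 and 29.7 RPM at 18M, a log2 difference of -1.03 (SE 0.17, limma adjusted p = 0.0311). The most abundant of the list by mean, miR-136-5p, ranged from 6175 to 26809 RPM in the young mice and from 2718 to 10232 RPM at 18M, and did not pass (adjusted p = 0.610).

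In the miR-297, miR-466, miR-467 and miR-669 families of the Sfmbt2 intron, a placenta-linked imprinted gene, 16 labels were tested, of which 8 fell and 0 rose, with a median log2 difference of -0.80. At an unadjusted limma p under 0.05, 14 were lower and 0 higher, or 87.5% of the labels tested against the 16.95% over all miRNAs fitted. The list was chosen with earlier results of these data known. Its labels were matched by family name, and whether each lies in this intron was not checked. This share is therefore a description and not a test of the list. With median-of-ratios scaling 6 fell, with edgeR 6 and with DESeq2 11, and 0 rose with any of them. Each of these families has near-identical copies, so their values are uncertain. miR-467d-5p fell from 51.7 ± 4.47 to 24.2 ± 3.81 RPM (SD, n = 3 each; limma adjusted p = 0.0246), miR-669c-5p from 48.4 ± 3.78 to 27.6 ± 1.40 RPM (0.0246 likewise adjusted by limma) and miR-467a-5p from 302 ± 35.3 to 154 ± 21.9 RPM (limma adjusted p = 0.0307). miR-466d-3p and miR-669f-3p fell by 0.85 and 0.83 on the log2 scale (limma adjusted p = 0.0307 each). These calls need most of the libraries: of the 5 named here with miR-412-5p and miR-322-5p, 7 in all, 6 were kept without 18M replicate 2 (adjusted p 0.0335 to 0.0601) and 0 without any other library (0.0551 to 0.107), with limma throughout. Of miR-335 (Mest) and miR-483 (Igf2), 2 arms were tested, and 0 were called by limma, edgeR or DESeq2 or had an unadjusted limma p under 0.05. miR-335-5p was at 2231 ± 685 RPM in the young mice and 1760 ± 281 RPM at 18M. miR-675, of H19, had no label in the table.

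The neuronal markers of the labelled tissue were present: the 5 neuronal miRNAs listed, miR-124-3p among them, summed to 236303 to 251786 RPM in the young mice and 211301 to 268408 RPM at 18M. The neuronal list and those of oligodendrocytes, red cells, pituitary, choroid plexus, muscle, vessels, immune cells and epithelium had 0 miRNAs called by limma, edgeR or DESeq2. These lists held only 1 to 5 tested miRNAs each, and limma called 3.22% over all miRNAs fitted. By an unadjusted limma p under 0.05, 1 marker each of the neuronal (5 tested), vessel (4) and immune (4) lists was lower and 0 were higher. Over all miRNAs fitted 12.7% were lower at this threshold, so nothing is read from these counts. The pituitary list stood apart in 1 mouse: its 4 miRNAs summed to 3442 RPM in the highest young mouse, 2M replicate 1, against 482 RPM in the lowest, and to 466.6 to 502.8 RPM at 18M. Red cell miRNAs summed to 2550 to 3689 RPM in the young mice and 1307 to 2892 RPM at 18M, with overlap. Immune miRNAs summed to 3401 to 3825 RPM in young and 2458 to 2997 RPM in old mice, without overlap. Of single labels with a mean of at least 1 RPM, 18.3% separated the ages in this direction. Oligodendrocyte miRNAs (6659 to 13932 against 7556 to 11213 RPM), vessel miRNAs (11390 to 17001 against 10104 to 13607 RPM) and epithelial miRNAs (37770 to 44974 against 28949 to 48013 RPM) overlapped, and miR-122-5p of liver stayed at 6.17 to 7.68 RPM over the 6 libraries. The part of these lists in the levels of miR-296 and miR-298 was not tested. Without 2M replicate 1 the log2 differences of miR-296-5p, miR-296-3p, miR-298-5p and miR-298-3p were -2.20, -1.42, -1.39 and -0.70.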

How the data were processed

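Groups came from the sample titles. The authors sequenced Ago-bound RNA on an Illumina HiSeq instrument, trimmed reads (Trim Galore is listed in the submitters' processing notes, its version not given in the sources used here), and with the SPOROS pipeline collapsed them to read sequences, removed rare ones, matched them to small RNA lists and added the percent viability of each 6mer seed. The deposited values are RPM, scaled by the authors to the same total per library, and 0 of the per-sample columns lay outside the 6 libraries. Whole reads were recovered for 100% of values (at most 0.000542 RPM from a whole read). RPM of reads naming a label were added up.

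miRNAs whose mean reached 10 RPM were fitted with limma 3.58.1 (R 4.3.3, trend) on log2(RPM + 1). p-values were adjusted by Benjamini-Hochberg and called under 0.05. Differences on this scale understate the change of low miRNAs. On the recovered reads edgeR 4.0.16 called 14 miRNAs and DESeq2 1.42.0 called 43, against 15 with limma. Arms were compared within each library as a description, and the exact sign-flip test planned for them is not given, since the levels of the members entered their choice. Tailed and shifted reads were found by aligning reads to the RefSeq hairpins, matched by name for all 4 members, and gene positions came from GENCODE. p-values measure the spread between these mice, 3 per group. Intervals cover counting error only, since reads carried no molecular identifiers.

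The members, lists and alternatives were chosen with earlier results of these data known. Read sequences named were the 5 most abundant of each member. Other miRNAs named were the 3 nearest in profile, those of the lists that passed the test (up to 5 a list) with the most abundant of each list, any sharing a seed and any within 1 Mb. miR-10a-5p, miR-10b-5p, miR-351-5p and miR-375-3p were named after their values were seen.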

Additional observations from a re-analysis of the deposited data

Results flagged for a closer look

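Reads outside the labelled set also came from the miR-296 hairpin. A second annotation column, which matches reads to a broad collection of RNAs, placed 29 read sequences without a miRNA label on this hairpin. They summed to 9.235 RPM (SD 1.99, n = 3) at 2M and 2.52 RPM (SD 0.744, n = 3) at 18M, which is 1.99% to 2.56% of the labelled miR-296 reads of the same library. They were singled out because data that no comparison used held a signal above the limit of 3 reads. Of these, 21 differed from miR-296-5p by a single base, such as G4C (0.620 RPM at 2M and 0.129 RPM at 18M) and C9A (0.527 and 0.0903 RPM), counted from 1 at the 5′ end with the base of miR-296-5p first. The leading sequences have 6 or 8 instead of 7 bases of C in the run, printed as DNA with the run in capitals.
6 bases of C: agggCCCCCCtcaatcctgt
8 bases of C: agggCCCCCCCCtcaatcctgt

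They stood at 2.36 and 0.885 RPM at 2M and at 0.737 and 0.293 RPM at 18M, beside 333 and 78.7 RPM for the sequence with the run of 7. With the reads that differ by 1 base or by the length of the run added, the log2 difference of miR-296-5p was -2.09. On the miR-298 hairpin 7 unlabelled sequences summed to 0.607 RPM at 2M and 0.135 RPM at 18M. What gave rise to these reads was not tested.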

How the results depend on the processing

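The log2 differences of the 4 arms kept their direction under every alternative run. Every old mouse was below every young mouse for each arm, in the contrast that chose the pair. Leaving out a library or changing the pseudocount therefore could not reverse a direction, and no support is drawn from this. Leaving out 1 library gave -2.26 to -1.89 for miR-296-5p, -1.42 to -1.24 for miR-296-3p, -1.48 to -1.26 for miR-298-5p and -0.79 to -0.63 for miR-298-3p. A pseudocount of 5 RPM gave -1.07 for miR-296-3p and -0.25 for miR-298-3p, and 0.1 RPM gave -1.22 for miR-298-3p, since the pseudocount is large beside such levels. miR-298-3p had no edgeR or DESeq2 value. The number of miRNAs called, 15 with limma, was 3 with no filter (1091 tested), 2 with a minimum of 100 RPM (273 tested) and 43 with DESeq2 (14 of them higher). With 1 library left out it was 0 to 15: among the 2M mice 3 without replicate 1, 0 without replicate 2 (68 at an unadjusted limma p under 0.05) and 0 without replicate 3 (73), and among the 18M mice 1, 15 and 1 without replicates 1, 2 and 3. Same-numbered deviations from the group means correlated at -0.171, -0.222 and -0.101. With 3 mice per group these values cannot settle whether replicate numbers pair the mice. With the replicate block 1 miRNA was called (63 at an unadjusted limma p under 0.05). The block leaves the difference between the ages itself as it is in a balanced design. Median-of-ratios scaling moved the median of all miRNAs by 0.0895 and gave -2.01 for miR-296-5p. The arm differences ranged over 3.45 to 3.73 (miR-296), 5.51 to 5.72 (miR-298) and 0.74 to 1.03 (miR-296-5p against miR-298-5p) with 1 library left out. Pseudocounts of 0.1 and 5 RPM gave 3.70 and 3.31, 6.41 and 4.16, and 0.90 and 0.88 for these. Depth limits what can be said of miR-298-3p, with 13 to 41 reads a library.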
